A study of Rattus norvegicus with 16 samples.

Results

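Brush border peptidases are enzymes anchored in the apical membrane of absorptive cells, where they cut peptides outside the cell. The members were the 8 genes Anpep, Enpep, Dpp4, Mep1a, Mep1b, Mme, Ace and Ggt1, found on the array as every probe whose gene name equalled 1 of these symbols. They were read by 10 of the 30367 probes that were not controls, and the array named 26115 genes in all. All 10 probes were among the 21174 probes tested.

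Digestion of protein ends at this membrane: pancreatic enzymes leave oligopeptides in the lumen, membrane-bound exopeptidases and endopeptidases shorten them, and the amino acids, dipeptides and tripeptides are then taken up by transporters of the same cell. Several of the same enzymes also occur elsewhere in the body, on kidney tubules, vessel walls and leukocytes, where they process hormones such as angiotensins, incretins and tachykinins. In suckling rats the small intestine already bears these peptidases, while the enzyme equipment for sugars changes toward weaning.

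Total RNA of suckling Wistar rats (Wistar Han by the study's methods) was measured on two-colour Agilent arrays for the stomach and the middle part of the intestine of C rats and of OH rats, with 4 arrays in each of the 4 groups. C rats were given saline solution and OH rats obestatin, a product of the ghrelin gene, at a dose of 250 nmol/kg BW, both enterally and 2 times daily between day 14 and day 21 of life. Each array carried Cy5-labelled material of the tissue of 1 rat against a Cy3-labelled pool of RNA from all animals of the study, and all values below are log2 ratios of the processed Cy5 to the processed Cy3 signal unless another scale is named. The treatment had been given by litter, and which rats shared a litter is not given in the sources used here, so p-values measure the spread between these 16 samples.

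Each group lay on a slide of its own, and the slides of the C groups and of the OH groups were scanned on different days, so that in the comparisons of OH with C the treatment cannot be told apart from the slide or the scan day, and in the comparisons of the tissues the tissue cannot be told apart from the slide. The median raw Cy3 signal of the pool was 188 to 195 on the arrays of the C groups and 341 to 399 on those of the OH groups. The labelled tissues bore their markers: the mean ratio of 11 enterocyte genes was -0.17 ± 0.25 (SD, n = 4) in C middle intestine against -3.73 ± 0.44 in C stomach, and that of 9 stomach mucosa genes (oxyntic glands and surface cells) was -4.03 ± 0.17 against 3.01 ± 0.17, respectively. C stomach replicate 2 stood apart, with striated muscle genes at a mean of -1.45 against 3.26 to 4.12 on the other C stomach arrays and -0.75 to 0.96 in OH stomach, as did OH middle intestine replicate 4, with pancreatic genes at -0.97 against -3.04 to -2.82. The tissues were whole pieces, so that fewer enterocytes and less RNA per enterocyte cannot be told apart.

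The 60-base probes decide what was measured, and 4 of them, each of which has a forward reading frame free of stop codons, are printed. Whether that frame is the coding one was not tested. For Dpp4 and Ace the second probe is printed, while the ratios of these genes rest on their brightest probes unless the second is named. The Anpep probe lies on the minus strand at chr1:135604381-135605238 (rn4, the build of the array design), and its 60 bases are spread over 858 bases of the genome. The second Dpp4 probe lies at chr3:44283428-44283487 (rn4, minus strand), the Mep1a probe at chr9:13200395-13200454 (rn4, plus strand) and the second Ace probe at chr10:95380760-95380819 (rn4, plus strand). The probes of Mep1b and Ggt1 had no position in the design.
Anpep probe: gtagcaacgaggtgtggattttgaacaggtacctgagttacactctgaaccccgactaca
Dpp4 second probe: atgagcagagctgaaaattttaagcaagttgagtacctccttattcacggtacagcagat
Mep1a probe: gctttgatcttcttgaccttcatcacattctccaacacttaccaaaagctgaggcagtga
Ace second probe: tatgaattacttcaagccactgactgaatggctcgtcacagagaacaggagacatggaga

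The 250 bases before the start of each gene were taken from RefSeq (GRCr8), which held all 8 members, and are shown for Anpep, Mep1a and Mme, the genes with no called tissue difference, with a moderate one and with the largest one. Capitals mark matches, on either strand, to short core strings of sites for transcription factors known from the intestinal epithelium. The string for hepatocyte nuclear factor 1 was GTTAAT. The string searched for the CDX homeobox factors was TTTAT. For hepatocyte nuclear factor 4 the letters were CAAAG. The zinc finger factors of the GATA family were represented by GATAA. No match overlapped another in the windows shown. The Anpep window (chr1:143195102-143195351, minus strand) held GTTAAT beginning 98 bases and CAAAG 85 bases before the start.
Anpep upstream: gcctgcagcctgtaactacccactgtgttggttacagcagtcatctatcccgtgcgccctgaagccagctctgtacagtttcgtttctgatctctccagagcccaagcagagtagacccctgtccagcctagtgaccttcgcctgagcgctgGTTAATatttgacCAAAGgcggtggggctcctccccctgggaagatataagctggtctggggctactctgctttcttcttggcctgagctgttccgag
The Mep1a window (chr9:24971651-24971900, plus strand) held CAAAG at 130 and 53 bases, TTATC, the reverse complement of GATAA, at 207 bases and TTTAT at 11 bases before the start.
Mep1a upstream: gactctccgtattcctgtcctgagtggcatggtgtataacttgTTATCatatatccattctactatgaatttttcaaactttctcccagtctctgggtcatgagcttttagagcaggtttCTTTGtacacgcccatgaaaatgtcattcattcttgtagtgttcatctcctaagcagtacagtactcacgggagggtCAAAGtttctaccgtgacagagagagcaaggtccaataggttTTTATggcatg
The Mme window (chr2:149872247-149872496, plus strand) held none of the 4 strings and had a GC content of 70.4%.
Mme upstream: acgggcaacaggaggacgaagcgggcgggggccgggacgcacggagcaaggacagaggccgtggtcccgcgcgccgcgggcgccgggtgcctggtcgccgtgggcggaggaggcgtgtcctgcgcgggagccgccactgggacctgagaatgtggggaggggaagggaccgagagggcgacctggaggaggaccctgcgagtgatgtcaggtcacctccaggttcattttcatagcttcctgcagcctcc
Of the 8 members, 2 held GTTAAT (Anpep and Mep1b), against 6.45% of the 33469 windows of the same length in the RefSeq table. CAAAG was found in 6 members against 48.2% of all windows, TTTAT in 3 against 39.3%, and GATAA in 2 against 23.5%. These matches are descriptions of letters, and binding was not measured here.

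The first question was how the peptidases differed between stomach and middle intestine in saline-treated C rats. In C rats, 7 of the 8 genes were lower in stomach, by 2.31-fold (Dpp4) to 94.1-fold (Mme), and 9 of the 10 probes passed an adjusted p of 0.05 in limma. Among all probes, 22.3% were lower in stomach by the same rule. The ratios of the 2 groups did not overlap for the same 7 genes, whereas 43.7% of all probes did not overlap. In OH rats, 7 genes and 9 probes were again lower in stomach against 19.1% of all probes, and the 7 genes did not overlap against 35.2% of all probes. The median difference over the 8 genes was -3.19 in C rats and -3.04 in OH rats on the log2 scale, beside -0.01 and 0.01 over all probes tested.

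**Figure D1:**
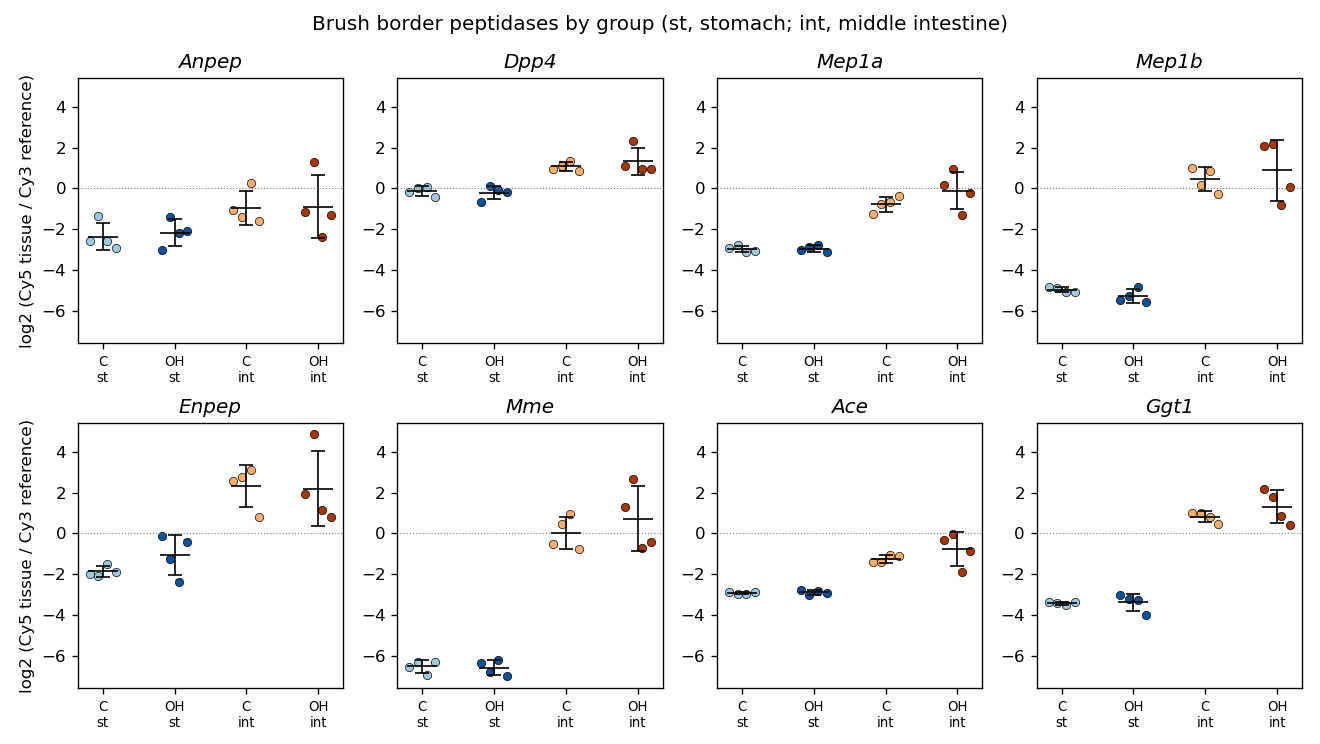
Log2 ratio of tissue (Cy5) to reference pool (Cy3) of each peptidase gene, read by its brightest probe, in the 4 groups. Points are single arrays (n = 4 per group), horizontal bars are means and whiskers are SD; all genes except Anpep have intestinal arrays that lie above every stomach array of the same treatment.

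Among the exopeptidases, aminopeptidase N (Anpep) removes neutral amino acids from the amino end of peptides. Its ratio in C stomach was -2.56, -1.37, -2.57 and -2.94 on replicates 1 to 4, and in C middle intestine -1.04, -1.39, 0.25 and -1.61. The groups overlapped, because C stomach replicate 2 stood above 2 of the 4 intestinal arrays. The difference of -1.41 ± 0.65 (SE) did not pass the threshold in limma (adjusted p = 0.0895), nor did that of -1.29 ± 0.65 in OH rats (adjusted p = 0.133). In OH rats the ratio was -3.03, -1.40, -2.18 and -2.09 in stomach and -1.15, 1.29, -2.37 and -1.32 in middle intestine, where 1 rat stood above all others and 1 lay within the stomach range. The call for C rats passed when OH middle intestine replicate 2, which enters only through the shared estimate of the spread, was left out (adjusted p = 0.0241), and the call for OH rats passed without OH middle intestine replicate 3 (difference -1.78, adjusted p = 0.0438).

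Aminopeptidase A (Enpep) removes acidic amino acids from the amino end and converts angiotensin II to angiotensin III. Its ratio was -1.98, -2.08, -1.50 and -1.88 in C stomach against 2.57, 2.78, 3.11 and 0.83 in C middle intestine. The arrays did not overlap, and the lowest intestinal array, replicate 4, was still above every stomach array. Enpep was lower in stomach, with a difference of -4.18 ± 0.76 (SE), an 18.1-fold difference (adjusted p = 0.000467 in limma). In OH rats it was -0.15, -1.26, -2.36 and -0.43 in stomach and 1.92, 4.87, 1.16 and 0.82 in middle intestine, a difference of -3.24 ± 0.76 or 9.46-fold (adjusted p = 0.0036).

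The OH stomach values of Enpep were spread over 2.22 log2 units. The mean ratio of 5 pericyte genes, cells that are also known to bear aminopeptidase A, was 0.48, -0.79, -1.72 and 0.11 on the same replicates 1 to 4, and that of 8 smooth muscle genes was 0.96, -1.32, -2.59 and 0.16. The means of 6 fibroblast genes (-1.68 to 0.58) and of 8 endothelial genes (-1.45 to -0.22) had the same order over the replicates. Striated muscle genes had this order too, with means of 0.96, -0.46, -0.75 and 0.81. Stomach mucosa genes had the reverse order, at 2.19, 2.80, 2.95 and 2.29. Replicates 1 and 4 were thus high and replicate 3 low in Enpep and in the lists of pericyte, smooth muscle, fibroblast, endothelial and striated muscle genes. The order was therefore not particular to pericytes, and the part of any of these cells in the Enpep value was not tested.

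Dipeptidyl peptidase 4 (Dpp4) releases dipeptides from peptides with proline or alanine in the second position and inactivates incretin hormones. Its brightest probe read -0.19, 0.04, 0.08 and -0.43 in C stomach and 0.97, 1.11, 1.37 and 0.87 in C middle intestine, without overlap. In OH rats it read -0.66, 0.10, -0.06 and -0.17 in stomach and 1.104, 2.34, 0.96 and 0.96 in middle intestine, again without overlap and with replicate 2 far above the rest. The difference was -1.21 ± 0.27 (SE; adjusted p = 0.00233), and that of OH rats was -1.54 ± 0.27 (adjusted p = 0.000415), both in limma. The second Dpp4 probe, which is printed above, gave a 2.97-fold and a 3.99-fold lower ratio in stomach, so both probes had the same direction.

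Among the endopeptidases, neprilysin (Mme) cuts peptides before hydrophobic amino acids and degrades tachykinins and natriuretic peptides. Its ratio was -6.56, -6.28, -6.93 and -6.31 in C stomach and -0.50, 0.45, 0.94 and -0.75 in C middle intestine. In OH stomach it was -6.35, -6.78, -6.22 and -7.00, close to the C values. The tissue difference of -6.56 ± 0.60 (SE) was the largest of the 8 genes, 94.1-fold (adjusted p = 6.92e-07 in limma), and it was -7.31 ± 0.60 or 158-fold in OH rats (adjusted p = 2.41e-07). Mme was close to background in stomach: on 6 of the 8 stomach arrays only 1 of its 2 spots was well above background in Cy5, so its fold rests on dim stomach signals.

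Meprins are zinc endopeptidases of the astacin family built from the subunits alpha (Mep1a) and beta (Mep1b), of which the beta subunit holds the complex in the membrane. Mep1b was -4.82, -4.89, -5.07 and -5.06 in C stomach and 1.00, 0.19, 0.87 and -0.27 in C middle intestine. In OH stomach it was -5.46, -5.26, -4.83 and -5.57, and in both treatments no stomach array reached an intestinal one. It was lower in stomach by 42.5-fold in C rats (difference -5.41 ± 0.53, SE) and 72.0-fold in OH rats (-6.17 ± 0.53), with adjusted p of 1.57e-06 and 4.39e-07 in limma. The ratio of Mep1a was -2.92, -2.77, -3.11 and -3.07 in C stomach and -1.26, -0.77, -0.66 and -0.39 in C middle intestine. In OH rats it was -3.02, -2.86, -2.78 and -3.11 in stomach and 0.15, 0.93, -1.28 and -0.22 in middle intestine, and neither pair of groups overlapped. Its difference of -2.20 ± 0.33 (SE), 4.58-fold, in C rats and -2.84 ± 0.33, 7.16-fold, in OH rats was called in both (adjusted p = 0.000105 and 1.03e-05 in limma). Mep1a was read by 1 spot per array, while the brightest probe of every other gene was read by 2.

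Angiotensin-converting enzyme (Ace) removes dipeptides from the carboxyl end of peptides and converts angiotensin I to angiotensin II. Its brightest probe read -2.89, -2.99, -2.96 and -2.86 in C stomach and -1.42, -1.38, -1.07 and -1.11 in C middle intestine. In OH stomach it read -2.78, -3.01, -2.83 and -2.94. The stomach arrays of each treatment were close together and did not overlap with the intestinal ones. Ace was lower in stomach, with a difference of -1.68 ± 0.28 (SE), 3.21-fold, in C rats and -2.13 ± 0.28, 4.38-fold, in OH rats (adjusted p = 0.00024 and 3.13e-05 in limma). The second probe gave -2.09 ± 0.40 and -2.51 ± 0.40.

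Gamma-glutamyltransferase (Ggt1) opens glutathione outside the cell by transferring its glutamyl group. Its ratio was -3.37, -3.40, -3.52 and -3.37 in C stomach and 1.02, 1.00, 0.82 and 0.45 in C middle intestine. In OH stomach it was -3.00, -3.22, -3.27 and -3.99, and again all stomach arrays lay below all intestinal ones. The difference of -4.24 ± 0.32 (SE), 18.9-fold, in C rats and -4.68 ± 0.32, 25.7-fold, in OH rats had the smallest adjusted p of the members, 9.15e-08 and 3.38e-08 in limma.

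**Figure D2:**
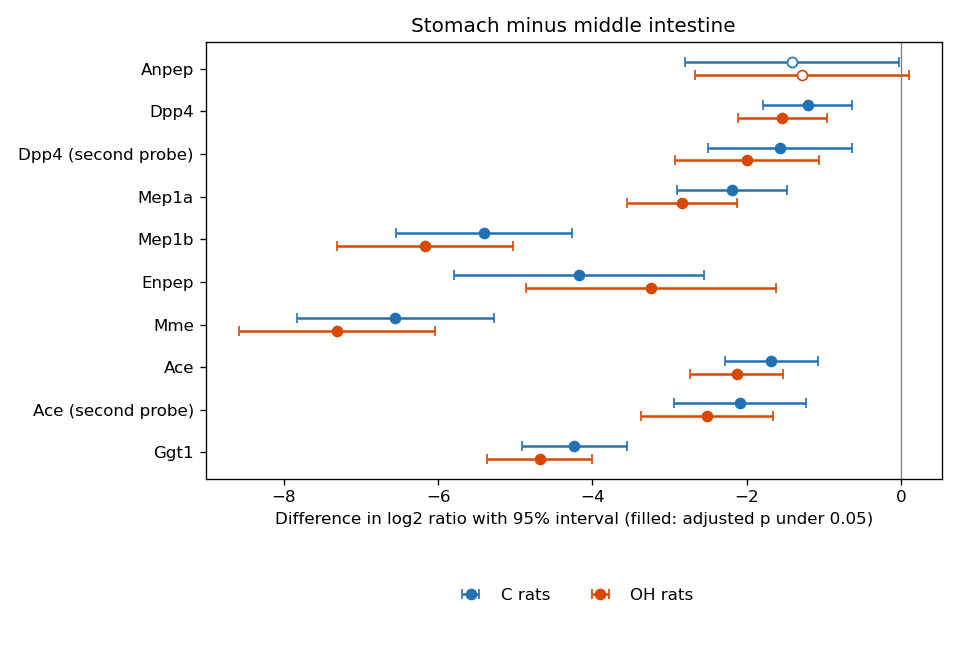
Stomach minus middle intestine difference in the log2 ratio of each of the 10 probes, in C rats and in OH rats, with 95% intervals from limma. Filled points passed an adjusted p of 0.05; only the 2 Anpep points are open, and Mme lies farthest to the left at -6.56 and -7.31.

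The difference between the tissues was set beside that of genes with neighbouring roles, 1 probe for each gene. Of the 21174 probes tested, 9517 were called in either direction in C rats, 4721 of them lower in stomach. In OH rats 8090 were called, 4034 of them lower in stomach. Of 20 other cell-surface peptidases, 12 were tested; in C rats 6 were lower and 3 higher in stomach, and 3 were not called, with a median of -0.67. Xpnpep2, a membrane aminopeptidase P, was lower by at least 45.7-fold, since it was not well above background on any C stomach array. Carboxypeptidase D (Cpd) and dipeptidase 2 (Dpep2) were higher in stomach, by 3.03 ± 0.19 (SE) and 1.74 ± 0.21. In OH rats, 6 of the 12 were lower, 2 higher and 4 not called.

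Of intracellular peptidases, only some of which finish the hydrolysis of absorbed dipeptides and tripeptides, 17 genes were tested. In C rats 6 were lower and 3 higher in stomach and 8 were not called, with a median of -0.10 over the whole list. The carnosine dipeptidase Cndp1 was lower, with a difference of -4.16 ± 0.23 (SE) and prolidase (Pepd) was lower with one of -1.73 ± 0.27, whereas the dipeptidyl peptidases Dpp3 and Dpp7 were higher by 1.05 ± 0.15 and 0.81 ± 0.22. In OH rats 6 were lower, 2 higher and 9 not called.

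All 4 tested of 5 other brush border hydrolases were lower in stomach in both treatments, with medians of -3.42 and -4.29. In C rats alkaline phosphatase (Alpi) was lower, with a difference of -4.29 ± 0.38 (SE) and maltase-glucoamylase (Mgam), well above background on 1 of 4 C stomach arrays, had one of -3.68 ± 0.24. Of 5 partners of peptide and amino acid uptake, 4 were lower and 1 was higher in stomach in both treatments. The peptide transporter Slc15a1 and the amino acid transporter Slc7a9 were lower, with differences of -6.11 ± 0.43 and -5.85 ± 0.36 in C rats, and Tmem27 (collectrin), a partner of amino acid transporters, was higher by 1.82 ± 0.42.

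The second question was whether obestatin changed the peptidases. In stomach, none of the 8 genes or 10 probes passed an adjusted p of 0.05 in limma, against 0% of all probes. None passed an unadjusted p of 0.05, against 10.6% of all probes, and none had groups without overlap, against 7.6%. The differences of OH from C ran from -0.32 ± 0.53 (SE) for Mep1b to 0.81 ± 0.76 for Enpep, with a median of 0.03 beside 0.01 over all probes, and the smallest adjusted p was 0.733. The narrowest 95% interval was that of the brightest Dpp4 probe, from -0.65 to 0.51 with a difference of -0.07. For Ace the difference was 0.03 with an interval from -0.57 to 0.63, while the interval of Enpep ran from -0.81 to 2.43. The fit used 1 estimate of the spread per probe over all 4 groups, so these intervals and p-values also carry the intestinal arrays. For Ace the SD was 0.06 in C stomach and 0.11 in OH stomach, against 0.18 in C and 0.82 in OH middle intestine.

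In middle intestine, none of the 8 genes or 10 probes passed either, against 0.368% of all probes. None passed an unadjusted p of 0.05, against 10.5%, and none had groups without overlap, against 5.86%. In 7 of the 8 genes the mean was higher in OH, with a median difference of 0.46 beside 0.00 over all probes. The largest was that of Mme at 0.68 ± 0.60 (SE), with a 95% interval from -0.59 to 1.96, followed by Mep1a at 0.67 ± 0.33 (-0.05 to 1.38), which had the smallest adjusted p, 0.527. Enpep was the gene with a lower mean in OH, at -0.13 ± 0.76. Here the shared estimate of the spread also carries the stomach arrays. For Mep1a the SD was 0.16 in C and 0.15 in OH stomach, against 0.37 in C and 0.92 in OH middle intestine.

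The difference between the tissues in the response to OH was called for 0 of the 8 genes, as for 0% of all probes. None passed an unadjusted p of 0.05, against 5.85% of all probes. The smallest adjusted p of the members in this comparison was 0.892.

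**Figure D3:**
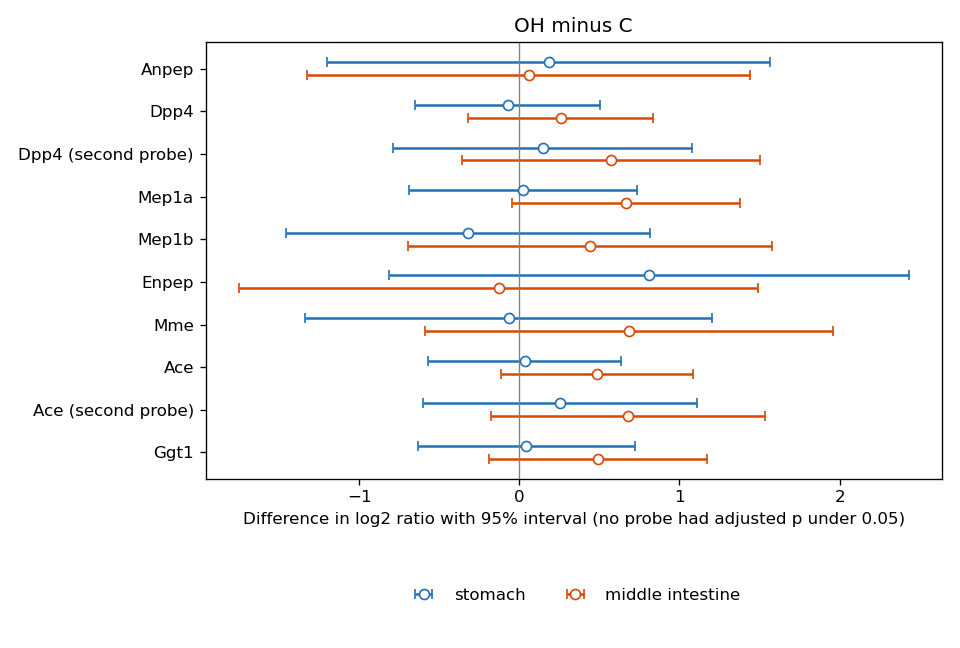
OH minus C difference in the log2 ratio of each of the 10 probes, in stomach and in middle intestine, with 95% intervals from limma. All points are open because no probe passed an adjusted p of 0.05; in middle intestine the points lie from -0.13 (Enpep) to 0.68 (Mme, Ace second probe).

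Both channels moved between the slides of OH and C. In stomach the processed Cy5 signal of the brightest probes was higher in OH by 0.11 (Mep1b) to 1.17 (Enpep) log2 units, while the Cy3 signal of the same pool was higher by 0.23 (Ace) to 0.59 (Anpep). In middle intestine the Cy5 signal was higher in OH by 0.07 (Enpep) to 0.88 (Mme), and the Cy3 signal differed by -0.13 (Ace) to 0.37 (Dpp4). The part of the Cy3 differences in the ratios was not tested.

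The rats of the OH middle intestine group differed from each other more than those of the other groups. The SD of the ratio among the 4 rats had a median of 1.20 over the 8 genes (0.67 to 1.85) in the OH middle intestine, against 0.48 in the C middle intestine, 0.35 in OH stomach and 0.20 in C stomach. Over all probes tested the median SD was 0.26, 0.27, 0.25 and 0.20 in the same order. All 8 genes had a larger SD in OH than in C middle intestine, and each gene's SD in OH middle intestine was above that of at least 93.3% of all probes. In C middle intestine this share ran from 26.6% (Ace) to 98.6% (Enpep), with Anpep at 97% and Mme at 96.6%. These SDs are descriptions, and no test of the spread was made.

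The deviations ran together over the genes. In OH middle intestine, Mme was 1.31, 2.69, -0.70 and -0.42 on replicates 1 to 4, Mep1b 2.10, 2.18, -0.79 and 0.07, and Ace -0.31, -0.01, -1.87 and -0.85. Replicate 2 was the highest of the 4 for 7 genes and above the group mean for all 8, and the exception was Ggt1, at 2.19, 1.80, 0.84 and 0.42, where replicate 1 was the highest. Replicate 3 was the lowest for 6 genes, and replicate 4 for Enpep and Ggt1. All 28 pairs of genes had r above 0 over these 4 arrays (median 0.86), and 21 of 28 pairs did in C middle intestine (median 0.40), where replicate 3 was the highest for 5 genes and replicate 4 the lowest for 6. These coefficients rest on 4 arrays that all genes share and carry no test.

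Enterocyte genes were read on the same arrays. On replicates 1 to 4 the mean ratio of the 8 peptidases was 0.91, 2.01, -0.51 and -0.07 in OH middle intestine, and that of the 11 enterocyte genes 0.68, 1.06, -0.92 and -0.15. In C middle intestine the peptidase means were 0.17, 0.25, 0.70 and -0.25 and the enterocyte means -0.45, -0.29, 0.12 and -0.07. The rats had the same order in both means in OH, while in C replicate 3 was highest in both and the lowest was replicate 4 in the peptidases and replicate 1 in the enterocyte genes. Taken as a difference from the enterocyte mean of the same array, the peptidase mean was 0.42 ± 0.38 (SD, n = 4) in OH and 0.39 ± 0.38 in C middle intestine. All 11 enterocyte genes were well above background on every intestinal array. They did not vary alike, and their mean does not stand for each of them. In OH middle intestine their SDs among the 4 rats ran from 0.30 to 1.69. Their differences of OH from C in middle intestine ran from -0.15 to 0.85, none of them called. The mean of 8 smooth muscle genes was lowest on the arrays with the highest peptidase means, at -0.92 on OH replicate 2 and -1.31 on C replicate 3, and ranged from -0.65 to -0.17 on the other OH arrays and from -0.59 to -0.29 on the other C arrays. The part of these cell types in the peptidase values was not tested.

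**Figure D4:**
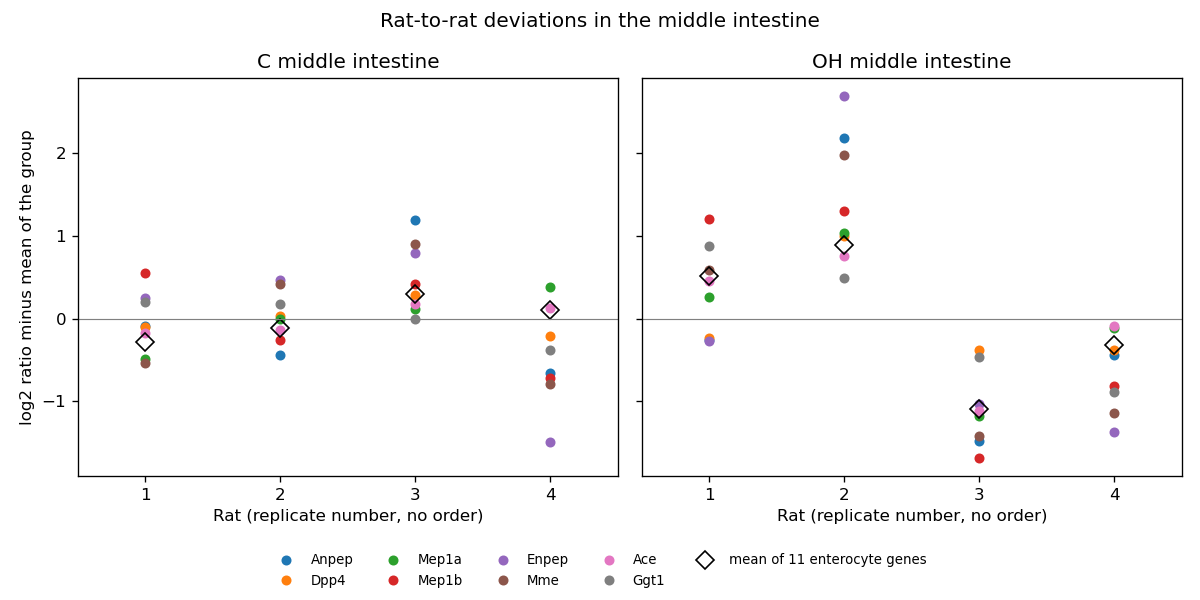
Deviation of each rat's log2 ratio (vertical axis) from its group's mean, by replicate (horizontal axis), in middle intestine of C and OH rats, for the 8 peptidase genes (dots) and for the mean of 11 enterocyte genes (diamonds). In OH middle intestine all 8 genes of replicate 2 lie above 0 and all 8 of replicates 3 and 4 below it.

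The mean of OH over C in middle intestine therefore depended on single rats. Without OH middle intestine replicate 2 the median difference of the 8 genes was 0.02, and 5 were above 0. Without replicate 3 it was 0.75 with all 8 above 0, and the smallest adjusted p in limma was then 0.0602, for Ace. Without replicate 4, the rat with high pancreatic genes, it was 0.61, and without replicate 1 it was 0.27. Among the C arrays, it was 0.28 with 6 genes above 0 without C middle intestine replicate 4, and 0.40 to 0.52 without each of the other C middle intestine arrays.

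By Pearson's r over the 16 arrays, the genes outside the members whose pattern was nearest were Slc3a1, Slc30a2 and Smlr1 to Mep1b (0.997 to 0.995), and Npc1l1, Slc26a6 and Clrn3 to Ggt1 (0.995 to 0.993), out of 13199 named genes. Smlr1, Guca2b and Tubal3 were nearest to Mme (0.994 to 0.992), Apoa1, Apob and Ms4a10 to Ace (0.993 to 0.990), and Lct, Ms4a10 and Btnl3 to Mep1a (0.988 to 0.987). For Dpp4 they were Tmem86b, Pepd and Xpnpep1 (all 0.97), for Enpep Dpep1, Ext1 and Fam213b (0.963 to 0.961), and for Anpep Cited2, Sec14l2 and Nomo1 (0.946 to 0.915). Anpep thus had the lowest nearest values of the 8. The arrays share the tissue contrast and the reference pool, so these coefficients are descriptions.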

How the data were processed

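For each array the authors deposited Agilent Feature Extraction output, with raw and processed intensity of each spot in Cy5 and Cy3 after background subtraction and Lowess dye normalization, and marks for dim, saturated and outlier spots. The file headers name version 10.10.1.1 and the submitters' processing notes 10.7.3.1. A series table of log10 ratios, deposited by the authors, gave 1 value per spot. It equalled the log10 ratios of the scanner files, apart from OH stomach replicate 1, whose scanner values had been rounded. Groups were taken from the labels.

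From the processed intensities, log2 ratios of Cy5 to Cy3 were computed per spot, outlier spots were left out (none of the members' spots was one, and none was saturated) and spots of a probe were averaged. Probes were kept if well above background in Cy5 (at least 0.5 of their spots) on all 4 arrays of a group and with at least 3 values per group; 21174 of 30367 remained. All 16 arrays were fitted in limma 3.58.1 under R 4.3.3 with 1 mean per group (lmFit and eBayes), and p-values were adjusted over all probes kept (Benjamini-Hochberg; calls at 0.05). The fit was tested on simulated data with 1 SD per probe for all groups and independent values. The unequal SDs and shared deviations of the members were not simulated. Intervals are 95% intervals of limma. The number of arrays limits the precision.

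The brightest probe of a gene was that with the highest mean Cy5 signal. The text names all 8 members with each probe and the 3 genes with the highest r to each member. Genes of the marker lists are not named singly. From the lists of other peptidases, other hydrolases and uptake partners it names the called genes with the 2 largest differences in each direction between the C tissues, and any gene called between OH and C. The values of 1 gene that this rule names are not reported here. The members and lists (cell-surface and intracellular peptidases, other hydrolases, uptake partners, and markers of enterocytes, epithelium, stomach mucosa, endothelium, pericytes, smooth muscle, fibroblasts, B cells, striated muscle and pancreas) were chosen with earlier results of these data known. No gene of these lists was called between OH and C in either tissue. Where a gene was not well above background on any array of a group, a bound was computed from channel values after Aquantile normalization. The upstream windows of all 8 members were matched by symbol in the RefSeq table of GRCr8. The same 33 alternatives were tried.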

Additional observations from a re-analysis of the deposited data

Results flagged for a closer look

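Among the 10 probes, each with 4 groups of 4 arrays, 1 value lay apart from the rest of its group by Dixon's ratio. The brightest Dpp4 probe read 2.34 in OH middle intestine replicate 2, while the other arrays of the group read 0.96 to 1.104 (ratio 0.893, above the 95% critical value for 4 values). Chance gives such a value in about 1 of 20 independent groups. The 40 groups here share the same arrays, so their count cannot be weighed against that rate. The same array was the highest of its group for 7 of the 8 genes. For no probe did all OH arrays lie above the C mean in 1 tissue and below it in the other.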

How the results depend on the processing

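Under the 33 alternatives that applied, the number of peptidase genes called was 7 or 8 of 8 between the tissues, in C and in OH rats, and 0 in both comparisons of OH with C and in the difference between them. The values with another call were those of Anpep, which was called between the C tissues with the arrays of these groups alone (adjusted p = 0.0342), with array weights (0.0172), without adjustment (0.0461) and without OH middle intestine replicate 2, and between the OH tissues without OH middle intestine replicate 3, and of the second Ace probe, which missed the threshold between the C tissues after scale normalization (adjusted p = 0.0625). No tissue difference changed sign. Over all probes the count between OH and C was 0 in stomach, from 0 to 2247 under the alternatives, and 78 in middle intestine, from 1 to 2213, and the highest were without adjustment; it was 311 in stomach without C stomach replicate 2, and 12 to 88 in middle intestine without single arrays.

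Differences of OH from C in stomach near 0 changed sign, none of them called. With normexp they were -0.0123 for the second Dpp4 probe, -0.0453 for Mep1a and -0.13 for Ggt1; with Cy5 alone 0.00857 for Dpp4, -0.0599 for its second probe and -0.13 for Ace; with array weights 0.0434 for Dpp4, -0.0213 for Ace and -0.0208 for Ggt1; after median centring -0.00112 for Mep1a; after scale normalization 0.37 for Mep1b and 0.89 for Mme; the cause was not tested. Leaving out single arrays, the stomach differences ranged from -0.0737 to 0.51 for Anpep, -0.17 to 0.0839 for Dpp4, -0.00114 to 0.44 for its second probe, -0.0325 to 0.0886 for Mep1a, -0.21 to 0.0708 for Mme, -0.00466 to 0.0737 for Ace and -0.0776 to 0.25 for Ggt1, and those of middle intestine from -0.67 to 0.55 for Anpep, -0.0740 to 0.39 for Dpp4 and -1.02 to 0.33 for Enpep.

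The labels do not say that a replicate number marks 1 rat in both tissues, and for that reason the numbers were not used as pairs. The deviations of same-numbered samples correlated at -0.12 to 0.32 over probes, above 0.1 for 5 of 8 pairs. The own number was highest for 5 of 8 samples. These correlations do not settle whether a number marks 1 rat, and shared rats remain possible. With a replicate block, which put the same number of C and of OH rats together, 7 peptidase genes were called between the tissues in C and in OH rats. With it 0 were called between OH and C, where the count over all probes in middle intestine was 40. A replicate block within each treatment was among the 33 alternatives, under which 7 or 8 peptidase genes were called between the tissues. No slide block could be fitted, since each slide held 1 group.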

Other observations

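Against the reference pool, several members lay lower than the pool in nearly all samples. The brightest Ace probe was below the pool on 16 of 16 arrays and the second on 15, while Anpep and Mep1a were below it on 14. The mean linear ratio over the 16 arrays was 0.337 for Ace, 0.480 for Anpep and 0.483 for Mep1a. For Enpep, below the pool on 8 arrays, it was 3.98, with a log2 ratio of 4.87 on OH middle intestine replicate 2. Over all probes the median of this mean was 1.15, and 6.04% of the 21174 probes lay below the pool on every array. The pool is described as RNA of all animals of the study, and which tissues it held is not given in the sources used here.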
